A study of Homo sapiens with 6 samples.

Results

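The RNAs described here are the long intergenic RNAs that T24 cells expressed under names made of LINC and digits, the symbols given to long non-coding RNA genes that have no other name. They were selected on their level alone: a row had to hold at least 1 FPKM (fragments scaled by gene length in kilobases and by the library's total) in at least 3 of the 6 libraries, whichever group those came from. Of 1878 rows with such a name, 57 met this rule. Another 1299 are listed at 0 in all 6 libraries, and 522 were above 0 but below the rule. T24 is a human bladder carcinoma line, and bulk RNA was sequenced from control cells and from cells given the cytokine TGF-b1 at 10 ng/ml for 48 h, with 3 libraries in each group. All 6 libraries were labelled wild type and day 2, and both groups were grown in medium with 10% fetal bovine serum. A single line stands for the tumour type. The labels do not say whether the 3 libraries of a group are separate cultures, and the p-values take in only the spread between these libraries, which may be technical.

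A long non-coding RNA is transcribed and usually spliced and polyadenylated like a messenger RNA, but it is not known to be translated into a conserved protein. Some act on the gene beside them, through their transcription or their RNA, and others work elsewhere in the nucleus or in the cytoplasm, where a number bind microRNAs or proteins. As a class they are expressed at lower levels and in fewer tissues than coding genes. TGF-b1 signals through its receptors to SMAD2 and SMAD3, which enter the nucleus with SMAD4, and in carcinoma cells it can start an epithelial-mesenchymal transition.

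The libraries held between 53591796 and 60200816 total reads, and between 11229 and 11405 genes reached 1 FPKM in each. Known TGF-b1 response genes were high in the treated libraries: PMEPA1, an inhibitor of the pathway, was at 14.1 ± 1.51 FPKM in controls and 68.4 ± 6.12 with TGF-b1 (SD, n = 3 each), and SMAD7, another inhibitor of it, at 2.35 ± 0.300 and 6.39 ± 0.932. The epithelial keratin KRT18 was at 322 and 227 FPKM on average and KRT8 at 222 and 188, while KRT19 was listed at 0 and EPCAM was near 0.22. The 8 urothelial markers summed to 3.999 to 4.67 FPKM in controls and 2.77 to 3.71 with TGF-b1, with KRT5 and UPK3A at 0, so the urothelial label rests on few of its defining genes. The 9 markers of other cell types summed to 0.578 to 0.794 FPKM in controls and 0.452 to 0.665 with TGF-b1, with CD3E and COL1A2 at 0. Control 3 stood apart from its group. Over all genes, its fragment counts differed from control 1 by a chi-square per degree of freedom of 18.4 and from control 2 by 26.2. They differed less from TGF-b1 1 (13.2) and TGF-b1 2 (13.3), and by 22.0 from TGF-b1 3. TGF-b1 1 in turn differed less from control 3 than from TGF-b1 3 (18.8), though least from TGF-b1 2 (7.59).

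The 57 RNAs together made up a small share of the transcriptome. Their FPKM summed to 161, 155 and 154 in controls 1 to 3 and to 155, 150 and 145 in TGF-b1 libraries 1 to 3, which is 10860 to 11988 fragments a library, or 0.0477 to 0.0525% of the fragments of all rows matched to the annotation. Their median level was 1.74 FPKM, against 7.64 for the 10003 coding genes that met the same level rule. A single member averaged 10 FPKM or more, 8 averaged at least 5 and 32 averaged under 2. The median member had 111.5 fragments per library, and 16 stayed under 100 fragments in every library.

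**Figure D1:**
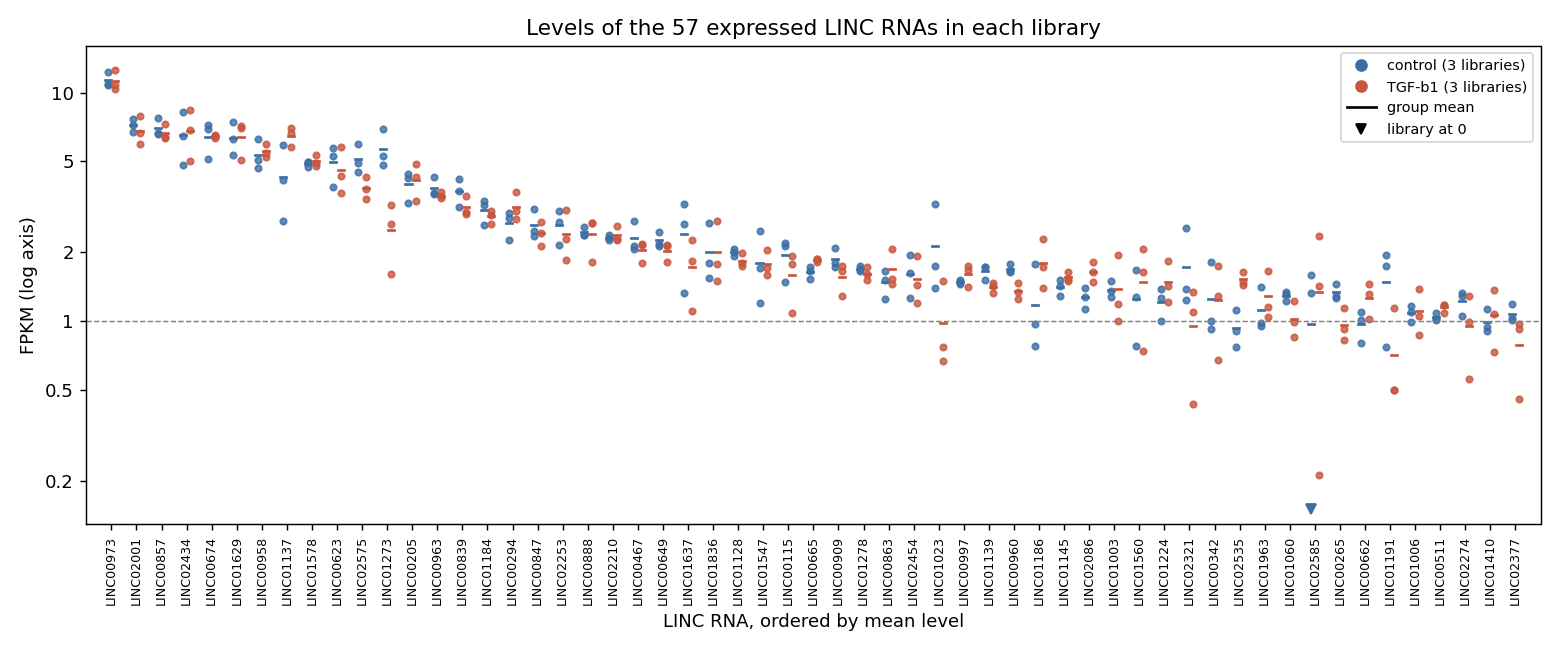
FPKM of each of the 57 LINC RNAs in each library (log axis), ordered by mean; points are libraries, short bars are group means, the triangle marks a library at 0 and the dashed line is the level rule of 1 FPKM. LINC00973 leads at a mean of 11.3 FPKM, and LINC01273 is the only member past the test, with its 3 TGF-b1 points below its 3 control points.

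LINC00973 had the highest level, at 10.9, 10.8 and 12.3 FPKM in controls and 10.8, 10.4 and 12.5 with TGF-b1. Its groups overlapped, and the difference was -0.01 on the log2(FPKM + 1) scale (95% interval -0.23 to 0.21). The gene has 2 exons at chr3:98981058-98983096 (GRCh38, plus strand), 79369 bases from the start of DCBLD2. LINC02001 followed at 7.20 ± 0.483 FPKM in controls and 6.82 ± 0.972 with TGF-b1.

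LINC00857 was at 6.67, 6.57 and 7.71 FPKM in controls and 7.29, 6.32 and 6.38 with TGF-b1, and the groups overlapped. It starts 2138 bases from ANXA11, an annexin gene on the other strand, which was at 33.9 ± 4.64 and 26.2 ± 2.00 FPKM (adjusted p = 0.12). LINC00958, also known as BLACAT2 and studied in bladder cancer, was at 5.34 ± 0.839 and 5.56 ± 0.385 FPKM. LINC01578 is CHASERR, an RNA known to repress the chromatin remodeller gene CHD2 beside it. Its 6 libraries lay between 4.70 and 5.35 FPKM, with 4.88 ± 0.159 in controls and 5.01 ± 0.310 with TGF-b1.

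For 4 of the 10 most abundant members no function can be stated here with certainty. LINC02434 was at 6.51 ± 1.71 and 6.76 ± 1.68 FPKM, LINC00674 at 6.42 ± 1.14 and 6.42 ± 0.111, LINC01629 at 6.33 ± 1.07 and 6.42 ± 1.17, and LINC00623 at 4.95 ± 0.971 and 4.59 ± 1.09. All of these groups overlapped. LINC01137, the remaining member of the 10, is described with the divergent genes.

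At the level rule, membership hung on small differences. The members just inside, by the third highest of their libraries, were LINC00662 at 1.10 FPKM, LINC01006 and LINC00511 at 1.09, LINC01410 at 1.08 and LINC02377 at 1.02. Just outside were LINC01521 at 0.975, LINC01703 at 0.969, LINC01775 at 0.963, LINC02361 at 0.955 and LINC01311 at 0.923. All 6 libraries reached 1 FPKM for 41 members. LINC02377 reached it in control libraries only, at 1.03, 1.02 and 1.18 FPKM against 0.971, 0.456 and 0.921 with TGF-b1, a difference that was not past the test (adjusted p = 0.28).

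The annotation, GENCODE 29 on GRCh38, types 43 members as lincRNA, 5 as processed transcript, 3 as antisense, 3 as transcribed unprocessed pseudogene, 2 as bidirectional promoter lncRNA and 1 as transcribed unitary pseudogene, so the symbol does not always mean that the gene lies between others. The members had a median exon length of 2618 bases in 4 exon blocks (exons merged over transcripts). The 512 LINC genes with a length that were above 0 but below the rule had 1970.5 bases in 4 blocks, and the tested coding genes 5087 bases in 11 blocks. Their median GC content, 47.7%, was close to the 48.0% of coding genes. Of the 57, 23 overlapped no other annotated gene and 12 overlapped a gene that was itself tested. The sources used here do not give the counting's strand setting or how reads from near-identical copies or shared exons were assigned, so reads of overlapping genes may not have been told apart.

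TGF-b1 and control libraries were compared with limma on log2(FPKM + 1), fitted on all 11363 genes that met the level rule, with Benjamini-Hochberg adjustment over all of them. One of the 57 LINC RNAs, or 1.75%, passed an adjusted p of 0.05, against 277 of all genes tested, or 2.44%. It was lower with TGF-b1, as were 1.29% of all genes. The share of members called was thus near the background. Among the 561 other long non-coding genes tested, 12 passed (2.14%). Among the 7292 other genes of any type whose means lay within the members' range of 0.929 to 11.3 FPKM, 173 passed (2.37%).

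Without the adjustment the counts were larger. An unadjusted p under 0.05 was reached by 7 members, 2 of them higher and 5 lower, or 12.3%, against 25.1% of all genes. The 3 TGF-b1 libraries lay wholly above or below the 3 controls for 10 members, 3 higher and 7 lower, or 17.5%, against 27.1%. LINC02377, among the 7, met the level rule through its 3 control libraries alone, so its separation was fixed by that rule. The same rule applied to all genes tested. The median absolute change was 0.11 on the log2(FPKM + 1) scale for members and 0.16 for all genes, and the added 1 FPKM shrinks changes more at the members' low levels. In signed terms the median change was -0.017 for members and 0.012 for all genes, with 25 members above 0 and 32 below. The ratio of group means ran from 0.440 for LINC01273 to 1.63 for LINC02535.

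Whole fragment counts were recovered from the FPKM values and gene lengths, which allowed a count-based test and an interval without the added 1 FPKM. With limma voom on those fragments, the same single member passed, while 9.33% of all genes did. For 45 members the voom 95% interval of the change lay within 2-fold in both directions, and for 12 it reached 2-fold or more.

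**Figure D2:**
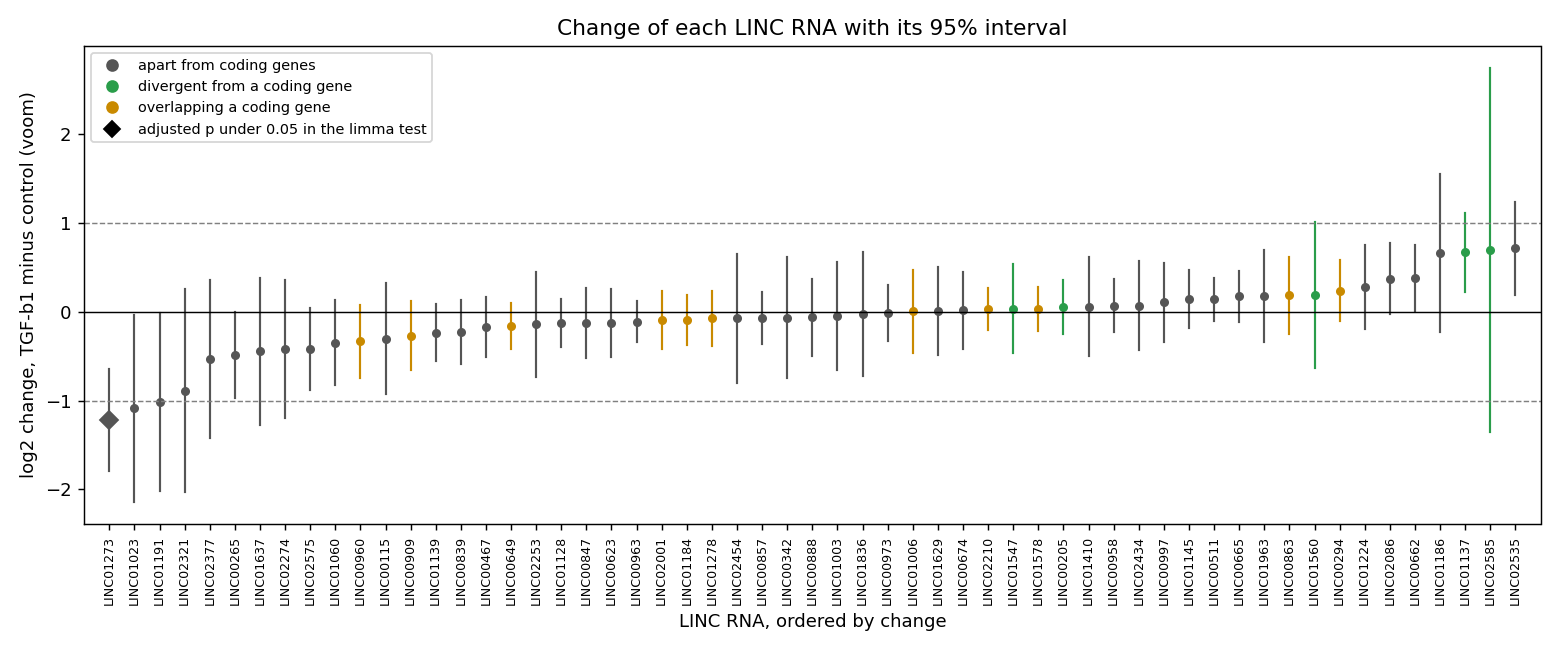
Change of each LINC RNA, TGF-b1 minus control, as a voom log2 change (points) with its 95% interval (lines), coloured by position relative to coding genes; dashed lines mark 2-fold. LINC01273 at -1.22 is the only diamond, for an adjusted p under 0.05 in the limma test, and the interval of LINC02585 is the widest.

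LINC01273 was the member that passed, and it was lower with TGF-b1. It was at 4.80, 6.92 and 5.28 FPKM in controls 1 to 3 and at 2.66, 3.22 and 1.60 in TGF-b1 libraries 1 to 3. Each control was above each treated library, and the counts behind these values were 96, 140 and 109 fragments against 51, 69 and 34. The means were 5.66 ± 1.11 and 2.49 ± 0.822 FPKM (SD, n = 3 each), a ratio of 0.440. The limma change was -0.95 on the log2(FPKM + 1) scale (SE 0.19, 95% interval -1.38 to -0.52, adjusted p = 0.040), and voom gave -1.22 (-1.79 to -0.65, adjusted p = 0.0097).

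The direction of LINC01273 held in all 17 other settings, but the call passed in 10 of them. It was lost with a pseudocount of 0.1 (adjusted p = 0.057), with no filter on low genes (0.30), with the trend with GC content and gene length removed per library (-0.75, 0.092, and 0.077 with a replicate block as well), and without control 1 (0.073), control 2 (0.11) or TGF-b1 1 (0.062). Without control 3, the library that stood apart, it was -0.98 with an adjusted p of 0.028. No call among the members held in every setting.

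LINC01273 (ENSG00000231742.5) is a lincRNA with 4 exon blocks and 894 exonic bases at chr20:50172550-50176671 (GRCh38, plus strand), and it overlaps no other gene. Its promoter window is shown because this is the member that passed the test in the main fit. It runs from 250 bases before to 50 after the RefSeq start, which is 20 bases from the GENCODE start. The window is chr20:50172320-50172619 on the plus strand of GRCh38.p14, read from RefSeq 5′ to 3′, and capitals mark matches to the motifs searched.
LINC01273 promoter: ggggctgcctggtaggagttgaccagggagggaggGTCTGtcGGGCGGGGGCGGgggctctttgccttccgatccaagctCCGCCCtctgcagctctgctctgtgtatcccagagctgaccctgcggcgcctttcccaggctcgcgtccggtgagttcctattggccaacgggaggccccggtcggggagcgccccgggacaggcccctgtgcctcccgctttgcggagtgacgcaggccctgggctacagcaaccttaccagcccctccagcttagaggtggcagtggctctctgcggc
Both strands were searched for the short SMAD motif CAGAC, the AP-1 site TGACTCA, the TEAD motif GGAATG and the SP1 motif GGGCGG. The window holds 1 SMAD match, as GTCTG at -215 from the start, and 3 SP1 matches at -208, -202 and -170, the first pair side by side. It holds no AP-1 or TEAD match. These are common letters: of 35116 windows of this length, 45.3% hold the SMAD motif, 45.0% the SP1 motif, 14.03% the TEAD motif and 4.95% the AP-1 site. A match is a string of letters and no evidence of binding.

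The nearest coding gene to LINC01273 is CEBPB, a basic leucine zipper transcription factor of inflammation and differentiation, on the same strand with its start 18184 bases downstream. CEBPB was also lower with TGF-b1. It was at 85.8, 103 and 67.7 FPKM in controls and at 49.9, 48.1 and 41.3 with TGF-b1, so the groups did not overlap (ratio 0.543, log2 change -0.85, SE 0.15, limma adjusted p = 0.014). Its call was lost without control 1 (0.060) and with no filter (0.25). With the GC and length trend removed its change was -0.51 (adjusted p = 0.0066).

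On the other side of LINC01273 lies TMEM189, which encodes the desaturase that makes plasmalogen lipids. It was at 11.5, 12.2 and 10.2 FPKM in controls and 7.59, 7.11 and 6.25 with TGF-b1, again without overlap (-0.63, SE 0.10, adjusted p = 0.0089). It passed in 16 of 17 other settings, all but the one with no filter (0.15). Within 250 kb of LINC01273, 4 other genes were tested, and CEBPB and TMEM189 were the 2 that passed, beside 2.44% of all genes tested. SNAI1, a repressor of E-cadherin known from epithelial-mesenchymal transition, was at 1.54 ± 0.481 FPKM in controls and 2.05 ± 0.171 with TGF-b1 (adjusted p = 0.21). The ubiquitin ligase gene RNF114 was at 31.6 ± 2.14 and 32.0 ± 3.93 FPKM (0.95). Whether the changes of these neighbours depend on each other was not tested.

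**Figure D3:**
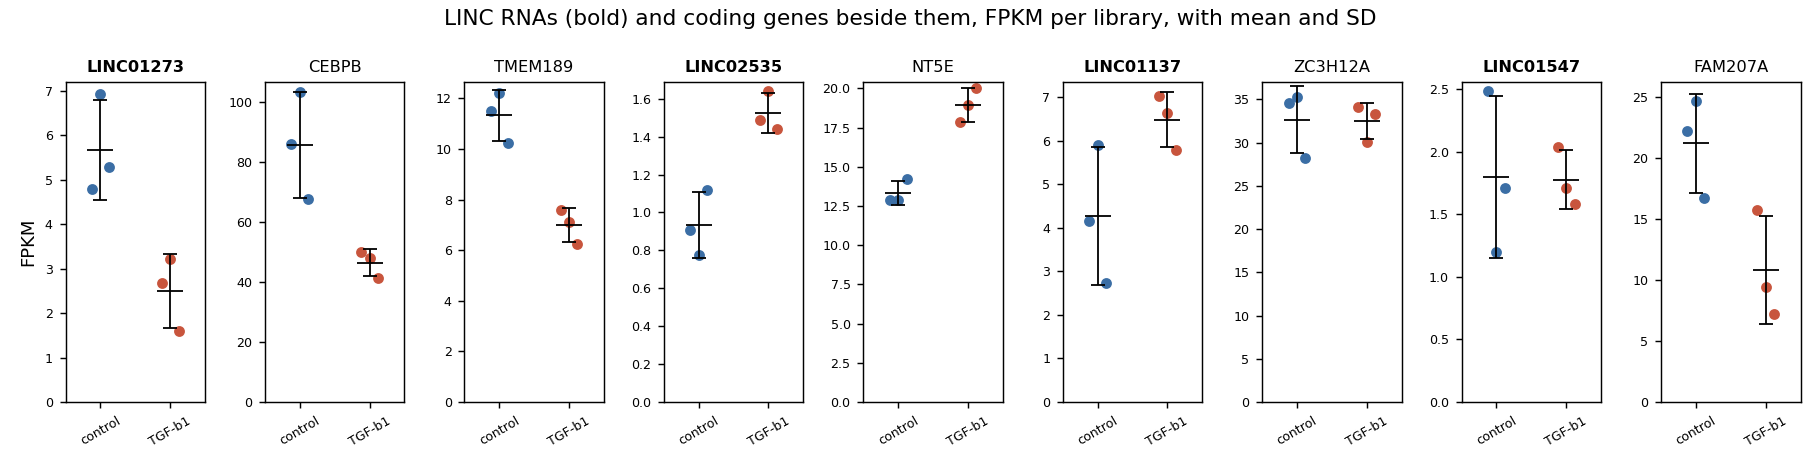
FPKM per library of 4 LINC RNAs (bold) and coding genes beside them, with mean and SD (n = 3 per group), each panel on its own axis from 0. LINC01273, CEBPB and TMEM189 are all lower with TGF-b1 and LINC02535 and NT5E are higher in each treated library, and no gene of the divergent pairs LINC01137 and ZC3H12A, and LINC01547 and FAM207A, passed the test.

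LINC02535 had the largest ratio above 1. It was at 0.907, 0.774 and 1.12 FPKM in controls and 1.49, 1.64 and 1.44 with TGF-b1, from 51, 44 and 65 against 80, 99 and 86 fragments. The groups did not overlap, but the difference was not past the test (ratio 1.63, log2 change 0.39, SE 0.11, limma adjusted p = 0.080; voom 0.72, 95% interval 0.19 to 1.24, adjusted p = 0.073). It passed when control 3 was left out (0.46, adjusted p = 0.020), a setting in which 28.9% of all genes passed, and when p-values were adjusted over coding and LINC genes only (0.025), in which 8.04% did. After removal of the GC and length trend it was 0.30 (0.16).

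LINC02535 is a lincRNA of 2 exons at chr6:85387219-85390186 (GRCh38, minus strand). Its promoter window is shown for contrast with that of LINC01273, whose exons are richer in GC (55.0% against 40.4%). The window is chr6:85390137-85390436 of GRCh38.p14, minus strand, from RefSeq, with capitals for the 50 bases after the start.
LINC02535 promoter: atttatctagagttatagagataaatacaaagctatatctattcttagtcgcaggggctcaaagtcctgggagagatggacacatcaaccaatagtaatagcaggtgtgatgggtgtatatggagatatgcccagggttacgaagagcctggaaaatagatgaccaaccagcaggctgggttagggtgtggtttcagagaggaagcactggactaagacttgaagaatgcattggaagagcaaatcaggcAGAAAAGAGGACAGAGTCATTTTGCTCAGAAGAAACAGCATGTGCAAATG
The nearest coding gene is NT5E, on the other strand with its start 59398 bases away. It encodes CD73, the surface enzyme that makes adenosine from AMP. NT5E was at 12.9, 12.9 and 14.2 FPKM in controls and 17.8, 18.9 and 20.02 with TGF-b1, a rise without overlap (ratio 1.42, log2 change 0.48, SE 0.092, limma adjusted p = 0.021). It passed in 12 of 17 other settings, and not with no filter (0.17) or when control 1 (0.12), control 2 (0.084) or either of TGF-b1 2 and 3 was left out. Of the 3 other genes tested within 250 kb of LINC02535, NT5E alone passed, beside 2.44% of all genes tested. Windows of that size around LINC01137 and LINC01547 held 7 tested genes each, and 0 passed in either.

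The members had 55 distinct nearest coding genes by start site, of which 34 were expressed enough to be tested and 2 passed, CEBPB and NT5E, beside 2.44% of all genes tested. By distance between gene bodies, 8 members had another neighbour, 32 neighbours were tested and the count was again 2.

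There were 5 members, called divergent here, that overlap no coding gene and start within 2000 bases of a coding gene that runs the other way, an arrangement in which a pair of genes shares a promoter region. None of the 5 passed the test, and their median change was 0.13, from 0.012 to 0.55. The 11 members that overlap a coding gene ran from -0.20 to 0.18 with a median of -0.047, and none passed. Among the overlapping members LINC01184, which overlaps CCDC192, also starts 594 bases from SLC12A2, an ion cotransporter gene on the other strand. LINC01184 was at 3.07 ± 0.377 and 2.87 ± 0.187 FPKM, and SLC12A2 at 3.71 ± 0.557 in controls and 4.66 ± 0.224 with TGF-b1 (0.27, adjusted p = 0.16). The 41 that lie apart had a median of -0.050 and held the 1 call.

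LINC01137 (ENSG00000233621.1, chr1:37454879-37474411, GRCh38, minus strand) starts 141 bases from ZC3H12A, which encodes Regnase-1, an RNase that degrades inflammatory messenger RNAs. It was at 4.16, 5.89 and 2.73 FPKM in controls and 7.03, 6.64 and 5.80 with TGF-b1, from 88 to 222 fragments. Control 2, at 5.89, lay just above the lowest treated library, so the groups overlapped (log2 change 0.55, SE 0.21, limma adjusted p = 0.16). ZC3H12A itself was at 34.6, 35.2 and 28.2 FPKM in controls and 34.1, 30.1 and 33.3 with TGF-b1, with a change of -0.003 (adjusted p = 0.99). Whether the change of LINC01137 differs from that of ZC3H12A was not tested.

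LINC01137 was the member that passed when LINC01273 did not under 3 settings. With the GC and length trend removed its change was 0.75 (adjusted p = 0.030), in a fit in which 4.32% of all genes passed, and 0.0099 with a replicate block as well. Without control 2 it was 0.77 (adjusted p = 0.028), with 1.55% of all genes passing. Without control 3 it was 0.32 (0.11). The size of its difference therefore rested on which control library was in the fit.

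LINC01547 starts 97 bases from FAM207A, which encodes a factor of ribosome assembly also named SLX9. It was at 2.49, 1.198 and 1.71 FPKM in controls and 2.04, 1.71 and 1.59 with TGF-b1, with overlapping groups and a change of 0.012 (adjusted p = 0.97). FAM207A was at 22.2, 24.7 and 16.7 FPKM in controls and 15.8, 9.40 and 7.24 with TGF-b1. Each treated library was below each control, yet the spread left the difference short of the test (-0.96, SE 0.29, adjusted p = 0.13), and it passed in 4 of 17 other settings. Whether the changes of these neighbours differ was not tested. The shared start region is shown because this pair has the nearest start sites among the divergent members. The window of LINC01547 is chr21:44939864-44940163 of GRCh38.p14, minus strand, from RefSeq, with capitals for the 96 bases between the start sites.
LINC01547 promoter: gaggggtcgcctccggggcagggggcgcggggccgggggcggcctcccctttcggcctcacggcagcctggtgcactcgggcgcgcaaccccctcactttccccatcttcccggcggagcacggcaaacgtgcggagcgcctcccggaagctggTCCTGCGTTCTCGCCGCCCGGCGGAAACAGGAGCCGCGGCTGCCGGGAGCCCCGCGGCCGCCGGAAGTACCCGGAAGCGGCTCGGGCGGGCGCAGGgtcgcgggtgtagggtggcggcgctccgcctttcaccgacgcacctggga
Of the other 3 divergent members, LINC00205 was at 3.97 ± 0.603 FPKM in controls and 4.15 ± 0.758 with TGF-b1, and POFUT2, 152 bases away, at 9.75 ± 0.765 and 10.0 ± 0.574. LINC01560, 625 bases from ZNF41, was at 1.24 ± 0.451 and 1.48 ± 0.676 FPKM, and ZNF41 at 0.898 ± 0.110 and 1.14 ± 0.209. LINC02585, 861 bases from the cadherin gene CELSR3, was at 1.60, 0 and 1.32 FPKM in controls and 1.43, 0.213 and 2.36 with TGF-b1. Those values came from 7, 0 and 6 against 6, 1 and 11 fragments on 196 exonic bases, and the difference was not past the test (adjusted p = 0.82).

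The 5 members furthest below 0 without passing were mostly low genes. LINC01023, a single exon of 436 bases near FER, was at 1.74, 3.24 and 1.39 FPKM in controls and 1.4999, 0.669 and 0.773 with TGF-b1. Its groups overlapped, and its ratio of 0.462 came from 17, 32 and 14 against 14, 7 and 8 fragments (log2 change -0.64, limma adjusted p = 0.17; voom -1.09, interval -2.14 to -0.03). Its change was -0.29 once the GC and length trend was removed and -0.39 without control 2. LINC01191 was at 1.75, 1.94 and 0.769 FPKM in controls and 0.498, 1.14 and 0.499 with TGF-b1 (-0.52, adjusted p = 0.19). Control 3 lay among the treated libraries, and without it the change was -0.75 (adjusted p = 0.022), while with the GC and length trend removed it was -0.20 (0.52).

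LINC02575 was the most abundant of these, at 4.51, 4.89 and 5.93 FPKM in controls and 3.79, 4.25 and 3.42 with TGF-b1. The groups did not overlap (ratio 0.747, log2 change -0.34, SE 0.11, limma adjusted p = 0.12), and after removal of the GC and length trend the change was -0.16 (0.58). Its nearest coding gene by start, LRRC3, was at 1.88 ± 0.190 and 1.36 ± 0.144 FPKM (adjusted p = 0.13). LINC02321 was at 1.73 ± 0.725 and 0.956 ± 0.468 FPKM (-0.48, adjusted p = 0.24), with -0.25 after that removal and -0.27 without control 1 or without TGF-b1 2. LINC01637 was at 2.41 ± 0.990 and 1.73 ± 0.579 FPKM (-0.30, adjusted p = 0.48). Its sign turned to 0.037 after the removal, and leaving out single libraries moved it between -0.55 and -0.12.

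Of the members furthest above 0 without passing, LINC01186 has a link to the pathway. It is known as ELIT-1 and has been studied as an RNA that TGF-b induces and that assists SMAD3. Here it was at 1.78, 0.777 and 0.968 FPKM in controls and 1.72, 1.40 and 2.29 with TGF-b1. Control 1 was as high as the treated libraries, and the difference was not past the test (log2 change 0.38, SE 0.18, limma adjusted p = 0.22). It rested on 11 to 34 fragments a library, leaving out single libraries moved it between 0.25 and 0.57, and the voom interval of -0.23 to 1.55 ran from below 0 to over 2-fold. LINC02086, in the region of HOXB7, was at 1.27, 1.13 and 1.40 FPKM in controls and 1.48, 1.80 and 1.65 with TGF-b1, without overlap (0.22, adjusted p = 0.21).

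The members' changes were weakly correlated with their base composition, less so than over all genes tested. GC content of the longest annotated transcript and log2 change had a Pearson correlation of -0.34 and a Spearman correlation of -0.25 over the 57 members, which share the same 6 libraries. Over 11292 tested genes with a GC value the correlations were -0.54 and -0.62. The members were lower genes, at a median of 1.74 FPKM against 7.64 for the tested coding genes, and the added 1 FPKM shrinks changes more at low levels. The correlation over other genes of the members' level was not computed. Of the 28 members above the median GC content 17 were below 0, with a median change of -0.071, and of the other 29, 15 were, with a median of -0.011. Once that trend and the trend with length were removed per library, the correlations over members were 0.20 and 0.25. LINC01273 at 55.0% GC, LINC01191 at 62.6% and LINC01023 at 63.5% were among the GC-rich members with values below 0, whereas LINC01137 at 56.3% was above 0. The part of base composition in the single changes was not tested beyond the values given with each.

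**Figure D4:**
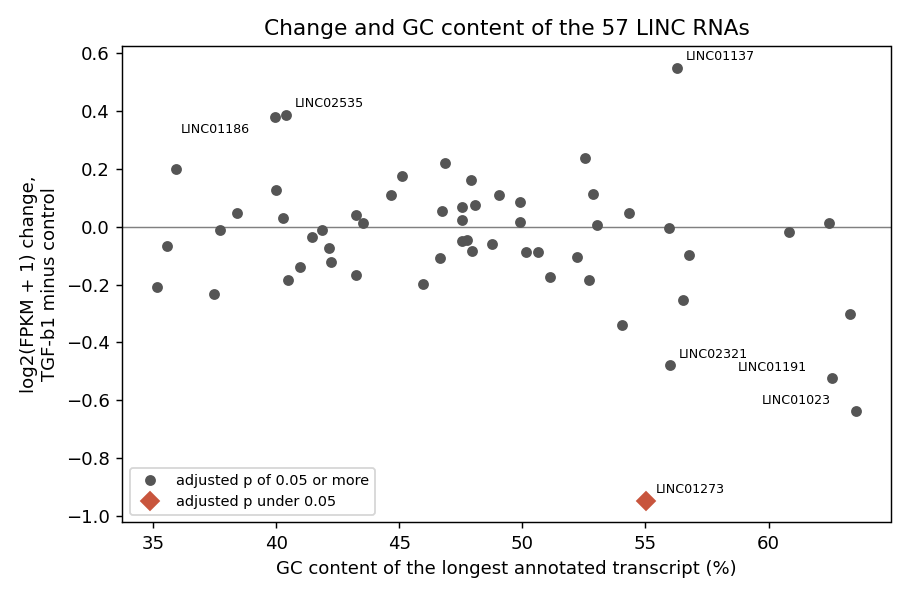
Log2(FPKM + 1) change, TGF-b1 minus control, of each of the 57 LINC RNAs (points) against the GC content of its longest annotated transcript; the diamond marks the member with an adjusted p under 0.05. The lowest points, LINC01273, LINC01023 and LINC01191, all lie above 55% GC, and LINC01137 is the highest at 56.3%.

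Lists of RNAs studied elsewhere gave few genes at a level that could be tested. The list studied in TGF-b signalling or epithelial-mesenchymal transition held 22 symbols, with CYTOR and NORAD also counted under their older LINC names. Of these, 4 were tested and none passed (median change 0.11, and 0.012 over all genes). These were CYTOR, LINC00511, LINC01186 and NORAD. NORAD, which binds PUMILIO proteins and guards chromosome stability, was at 41.7 ± 2.54 FPKM in controls and 43.4 ± 1.83 with TGF-b1. Of 13 LINC RNAs studied in bladder cancer, 5 were tested and none passed (median 0.055). In this list LINC00511 was at 1.04 ± 0.0432 and 1.15 ± 0.0577 FPKM, LINC00649 at 2.26 ± 0.175 and 2.03 ± 0.185, and LINC00665 at 1.64 ± 0.0976 and 1.85 ± 0.0314.

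Of 37 long non-coding RNAs with names of their own, 22 were tested, 1 was higher and 1 lower (median 0.039). BLACAT1, first described in bladder cancer, was at 1.75, 1.54 and 1.85 FPKM in controls and 0.484, 0.710 and 0.408 with TGF-b1 (log2 change -0.82, SE 0.11, limma adjusted p = 0.0033). It met the level rule through its control libraries alone, so its direction and the separation of its groups were fixed by that rule. NKILA, an RNA that binds and restrains NF-kB and is transcribed beside PMEPA1, rose from 1.46 ± 0.128 to 4.29 ± 0.615 FPKM (1.10, SE 0.11, adjusted p = 0.00051). BLACAT1 was tested in 15 of the 17 other settings and passed in 14, and NKILA was tested in 16 and passed in 15. Both calls were lost with no filter on low genes (limma adjusted p = 0.10 and 0.056).

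The members also differed in how far libraries of the same group lay from each other. Measured as chi-square per degree of freedom of the fragments within groups, where 1 is the value that counting error alone gives, the median was 2.90, and 39 members were above 2. LINC00205 had the highest value, 19.9, with 566 to 792 fragments a library and 3.28 to 4.86 FPKM. LINC00342 was at 13.0, LINC00623 at 10.6, LINC01137 at 10.4 and LINC01547 at 7.95. LINC01273 was at 5.09, LINC02535 at 1.15 and LINC00960 lowest at 0.449. For LINC00205 and LINC01137 the spread between libraries was thus several times what their fragment numbers give. At a given relative spread this measure grows with fragment number, so it does not rank members by relative spread. LINC02585, at 0.973 ± 0.854 FPKM in controls, spread further relative to its mean than LINC00205, at 3.97 ± 0.603.

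**Figure D5:**
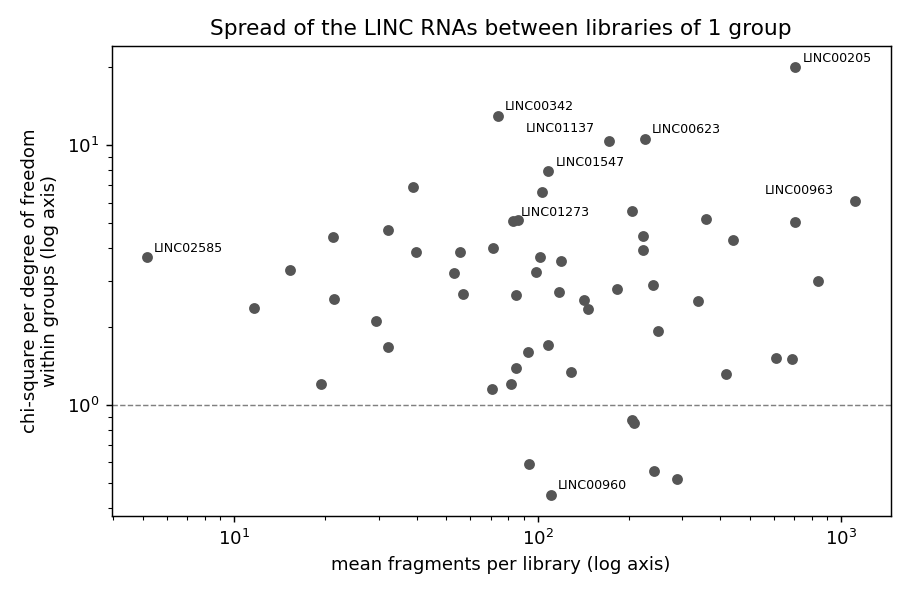
Chi-square per degree of freedom of fragments between libraries of a group against mean fragments per library for each LINC RNA, both on log axes; the dashed line at 1 is counting error alone. LINC00205 is highest at 19.9 and LINC00960 lowest at 0.449. At a given relative spread the value grows with fragment number, so it does not rank members with few fragments, such as LINC02585, by relative spread.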

How the data were processed

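Not given in the sources used here are the RNA selection, the library kit, trimming, the annotation release and the strand setting. Reads of 150 bases, paired, were aligned with HISAT2 2.0.5 to hg38 and counted with featureCounts 1.5.0-p3, per the submitters' processing notes. The authors deposited FPKM values for 58735 gene rows. Rows that gave mapping totals were used for depth only. Gene lengths, types and positions came from GENCODE 29, in which 56923 rows matched once by name; dividing each FPKM by the value of 1 fragment gave whole numbers within 0.05 for 99.9992% of 126561 values above 0.

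Changes are TGF-b1 minus control on log2(FPKM + 1), tested with limma 3.58.1 in R 4.3.3 (mean-variance trend, robust estimation, treatment as the only term) over 11363 genes, with Benjamini-Hochberg adjustment. The code was tested on simulated data. Voom ran on the recovered fragments, and intervals are 95%. A member was named where it passed or was among the 10 highest means or the 5 largest rises or falls. So was a member at the edge of the level rule, in a list, or at 1 FPKM in 1 group only. By rule, neighbours were named only beside members that passed and beside named divergent members. NT5E, TMEM189, SNAI1, RNF114, ANXA11, LRRC3, SLC12A2, LINC01184, POFUT2, ZNF41, LINC00342 and LINC00960 were named after their values were seen. LINC01547, LINC00205 and LINC01560 met none of the naming criteria and were described as divergent members, with FAM207A beside LINC01547. The members and lists were chosen with earlier results of these data known. Promoter windows are from RefSeq (GRCh38.p14), which held 37 of the 57 members.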

Additional observations from a re-analysis of the deposited data

How the results depend on the processing

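In place of 1 LINC RNA and 277 genes past an adjusted p of 0.05, a pseudocount of 0.1 gave 0 LINC RNAs and 268 genes, and no filter on low genes gave 0 of 579 LINC rows (26 at an unadjusted p under 0.05) and 15 genes. Adjusting over coding and LINC genes only gave 2 LINC RNAs, LINC01273 and LINC02535, and 809 genes. For all genes, a filter of 2 FPKM gave 426 calls (165 higher, 261 lower), voom 1054 (396 and 658), and the GC and length trend removed 491 (287 and 204), against 130 higher and 147 lower. Leaving out a library gave 0 to 3 LINC RNAs and 124 (without control 1) to 3280 (without control 3) genes; it was 176 without control 2 and 152 without either TGF-b1 2 or TGF-b1 3. Same-numbered libraries had correlations of their deviations of 0.25, -0.071 and 0.17 for numbers 1 to 3. Differently numbered ones ran from -0.24 to 0.069. The same-numbered values for 1 and 3 were thus the highest, while that for 2 was below 0. Not every same-numbered pair was above 0.1, and the numbers were not taken as pairs. A replicate block gave 1 LINC RNA (LINC01273) and 767 genes, and a block after removal of the GC and length trend gave 1 (LINC01137) and 580. The summed FPKM of every LINC row averaged 216.9 in controls and 206.4 with TGF-b1, against 156.4 and 150.0 for the 57 members. The cause of these differences was not tested.

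The named members past the test in any setting kept their direction in all of them. Changes were followed over the settings for 24 members. Other members named here, such as LINC01547, LINC00205, LINC01006 and LINC01184, were not among them. Of the 24, 12 changed sign in some setting, and these passed in none. With the GC and length trend removed, with or without a replicate block, log2 changes were 0.037 for LINC01637, -0.0027 for LINC02434, -0.11 for LINC01578, 0.092 for LINC00623 and -0.037 for LINC00511. Upper-quartile scaling gave 0.019 for LINC00973, and quantile normalization gave 1.004e-05 for LINC00973, -0.0089 for LINC00674 and -0.00099 for LINC01629. Leaving out 1 library at a time gave ranges of -0.19 to 0.65 for LINC02585, -0.084 to 0.043 for LINC00973, -0.17 to 0.0082 for LINC02001, -0.12 to 0.0059 for LINC00857, -0.12 to 0.22 for LINC02434, -0.12 to 0.095 for LINC00674, -0.088 to 0.15 for LINC01629, -0.020 to 0.16 for LINC00958, -0.012 to 0.058 for LINC01578 and -0.25 to 0.027 for LINC00623.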
